A study of Mus musculus with 24 samples.

Results

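The 32 genes described here encode collagen chains, the subunits of the triple-helical proteins that give connective tissue and basement membranes their strength. They were chosen by name out of 45706 genes in the deposited table, as collagen chains other than most of those of cartilage collagens. They include Col11a1, which is also a cartilage chain, and are not all of the other chains, since Col12a1 is not among them. By the kind of assembly they enter, 9 are fibrillar, 6 are of the basement membrane (collagen IV), 3 form beaded filaments (collagen VI) and 3 are FACIT chains, which sit on the surface of fibrils. A further 4 are transmembrane, 2 are multiplexins, 2 form short-chain networks, 1 forms anchoring fibrils and 2 are of other kinds.

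The levels come from bulk RNA sequencing of mouse embryonic fibroblasts (MEFs) in primary culture, which grow out of dispersed embryo tissue, of the strain labelled C57B1/6. Cells were wild type (WT) or a knockout (KO) of cGAS, the sensor of cytosolic DNA encoded by Mb21d1. The labels name the knockout by its gene only, and give neither the embryos' age nor the number of embryos or cultures. Both genotypes were passaged under 20% oxygen, and RNA was taken on day 33 (passage 11), day 36 (passage 12) and day 42 (passage 14). The 4 numbered columns per genotype and day differed by less than the sampling noise, so they were pooled into 1 library, which leaves 1 library per genotype and day and n = 3 per genotype. Nothing says that the days came from separate cultures, so the p-values reflect the variation among these 6 libraries alone, part or all of which may be technical.

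Each collagen molecule is a trimer of chains that wind around each other in the endoplasmic reticulum after hydroxylation of proline and lysine. Fibrillar procollagens are then secreted, trimmed at their ends and crosslinked into fibrils, whereas collagen IV keeps its ends and assembles into the sheet of a basement membrane. Fibroblasts are the main source of collagens I, III, V and VI in connective tissue, and cultured fibroblasts lay down these chains together with fibronectin.

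The libraries held 25651250 to 48717439 counts. Mb21d1 itself was at 4.74, 4.08 and 4.81 CPM (counts per 1e6 counts, scaled by TMM) in WT on days 33, 36 and 42 and at 0.239, 0 and 0.127 CPM in KO, which matches the labels of the 6 libraries. The 8 fibroblast markers summed to 6540 to 8140 CPM in WT, against 5340 to 5930 CPM in KO, most of it Vim (4173 to 5301 CPM over the 6 libraries). By the edgeR test described below, the log2 fold change of KO over WT was negative for 7 of the 8 and positive for Twist1 (0.23). Fap, which differed most, was at 7.555, 3.67 and 21.25 CPM in WT on the 3 days, against 1.2, 0.0373 and 0.431 CPM in KO. It was not called (adjusted p = 0.0518 by edgeR). The endothelial markers Pecam1, Cdh5 and Esam and the epithelial markers Epcam, Krt8 and Krt18 were below 1 CPM in every library, and the muscle markers Myod1 and Myf5 were at 0. The 6 endothelial markers summed to 14.9 to 15.8 CPM in WT, against 7.42 to 12.5 CPM in KO, the 6 epithelial ones to 19.6 to 39.7 and 19.8 to 24 CPM, and the 6 muscle ones to 115 to 145 and 90.9 to 134 CPM. Most of these sums came from Kdr (4.1 to 13.1 CPM over the 6 libraries), Krt5 (16.6 to 35.45 CPM) and Actn2 (90.3 to 143 CPM). The mitochondrial share of the counts was 1.88, 2.38 and 1.1% in WT on the 3 days, against 1.27, 0.694 and 0.889% in KO. Xist, the noncoding RNA of X inactivation, was at 0.0573 to 0.363 CPM in WT, against 465 to 640 CPM in KO. This difference runs with genotype in all 6 libraries, so the 2 cannot be told apart for any gene below.

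The collagen chains listed made up a similar share of the transcriptome in both genotypes on day 33 and a smaller one in KO on the later days. The 32 genes together made up 3.67, 3.56 and 4.08% of WT counts on days 33, 36 and 42, against 3.67, 2.77 and 3.1% of KO counts. The basement membrane class differed more, with 0.526, 0.535 and 0.5% in WT against 0.392, 0.189 and 0.149% in KO, and all 3 KO libraries lay below all 3 WT libraries. Most of its counts were of Col4a1 and Col4a2 (135844 and 95678 of 256296 in WT day 33), while Col4a3 and Col4a4 had positive fold changes, given below. The FACIT class also separated, at 0.0251 to 0.0285% in WT against 0.0187 to 0.0241% in KO. The short-chain network class separated the other way, at 0.0678 to 0.0726% in WT against 0.0846 to 0.103% in KO. Exact 95% binomial intervals of these shares, which cover counting error only, were narrow. That of the basement membrane class in KO on day 36, the library with the fewest counts, was 0.187 to 0.1903%. In bulk samples, fewer cells of a type and less RNA per cell cannot be told apart.

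With the 3 days as replicates, 4 of the 30 collagen genes tested were called lower in KO than in WT and 0 higher. The test was edgeR's quasi-likelihood test with Benjamini-Hochberg adjustment over all genes, at a threshold of 0.05. Where a gene is said below to have fallen or risen, it was called lower or higher in KO than in WT, not between days. The 4 were Col24a1, Col4a5, Col16a1 and Col6a3, whose coordinates are given on mm10. Of all 17233 genes tested 4.65% were called lower and 4.07% higher (8.72% in either direction). The log2 fold change of KO over WT was negative for 22 collagen genes and positive for 8, with a median of -0.49 against -0.01 over all genes. Without adjustment 14 of the 30 had a p below 0.05, as did 4700 of all genes (27.3%). In 9 collagen genes all KO libraries lay below all WT libraries, and in 2 (Col11a1 and Col8a1) above, where 17% and 17.2% of all genes did so. Col13a1 and Col26a1 were below the filter on low counts and were not tested, and they never exceeded 0.115 CPM.

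**Figure D1:**
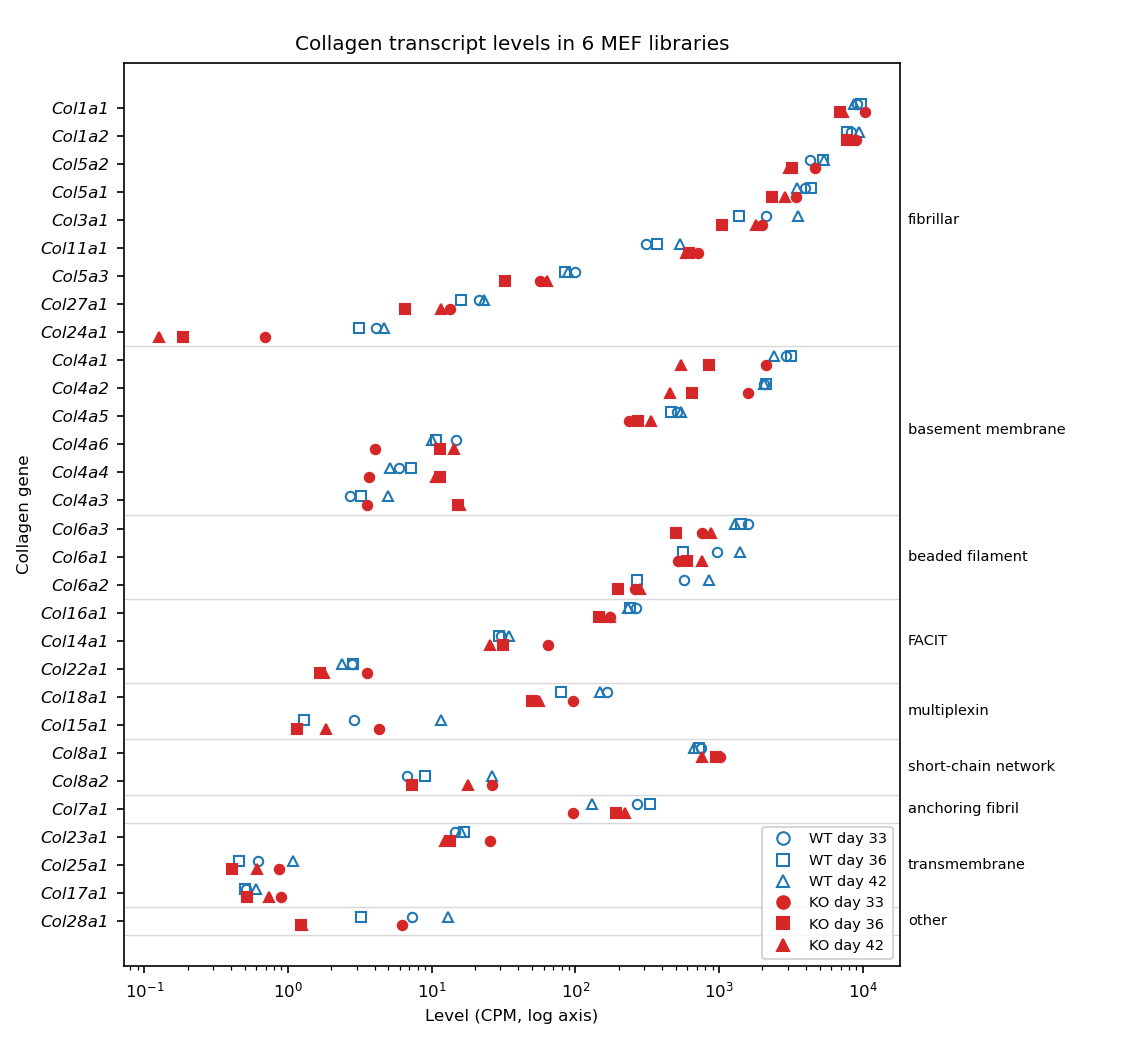
Levels of the 30 tested collagen genes in CPM (log axis), by class, with 1 point per library: open blue symbols are WT and filled red symbols KO, and the shape gives the day. The 3 KO points of Col24a1 lie between 0.127 and 0.688 CPM, below the lowest WT point at 3.14 CPM.

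The count of called collagen genes changed with the libraries used, as did that of all genes (1503). Leaving out WT day 33, KO day 36 or KO day 42 gave 0 collagen genes in each case, with 254, 24 and 68 of all genes. It was 3 without WT day 36 (738 of all genes), 4 without WT day 42 (1703) and 7 without KO day 33 (5 lower and 2 higher, with 1811 of all genes). DESeq2 called 12 collagen genes (10 lower and 2 higher) and 2855 of all genes. The direction of the 4 called genes was negative in each of these fits.

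Col24a1 (chromosome 3, 145292472 to 145552011, plus strand), a minor fibrillar chain known from developing bone and cornea, showed the largest difference of the 30 genes. It was at 4.12, 3.14 and 4.64 CPM in WT on days 33, 36 and 42 and at 0.688, 0.187 and 0.127 CPM in KO (193, 137 and 162 counts against 23, 5 and 5). The log2 fold change was -3.56 ± 0.59 (SE, n = 3 per genotype, adjusted p = 0.0207 by edgeR). Every KO library lay below every WT library, and KO day 33 was the highest of the KO values. The adjusted p was 0.0791 without WT day 33, 0.103 without KO day 36 and 0.0679 without KO day 42, and the log2 fold change was -4.67 without KO day 33.

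Col6a3 (chromosome 1, 90765923 to 90843971, minus strand) encodes the largest of these chains of collagen VI, the microfibril that links cells to the surrounding matrix. It was at 1585, 1407 and 1288 CPM in WT, against 757, 504 and 873 CPM in KO. The log2 fold change was -1.0 ± 0.22 (adjusted p = 0.0404 by edgeR). The genotypes did not overlap, and they were closest on day 42, with a difference of -0.56 in log2 CPM against -1.07 on day 33 and -1.48 on day 36. With any 1 of the 6 libraries left out the adjusted p was 0.0524 to 0.134, so this call needed all of them.

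Col4a5 (chromosome X, 141475385 to 141689234, plus strand), the basement membrane chain mutated in X-linked Alport syndrome, was at 505, 464 and 542 CPM in WT, against 236, 273 and 335 CPM in KO. Its log2 fold change was -0.84 ± 0.15 (adjusted p = 0.0245 by edgeR). The lowest WT library was above the highest KO library. The adjusted p was 0.0916, 0.119 and 0.0529 when WT day 33, KO day 36 or KO day 42 was left out. Col4a5 lies on the X chromosome, and Xist, the noncoding RNA of X inactivation, stood at 0.363, 0.183 and 0.0573 CPM in WT, against 478, 465 and 640 CPM in KO. The part of this difference in the level of Col4a5, or of any other gene here, was not tested and cannot be told apart from that of the genotype.

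Col16a1 (chromosome 4, 130047840 to 130099283, plus strand), a FACIT chain found at the rim of fibrils and near basement membranes, was at 264, 239 and 233 CPM in WT, against 174, 146 and 173 CPM in KO. Its log2 fold change of -0.58 ± 0.11 (adjusted p = 0.0263 by edgeR) was the smallest of the 4. The 3 values of each genotype were close together and did not overlap with those of the other. The adjusted p was 0.106 and 0.0651 when day 33 or day 36 of WT was left out, and 0.108 and 0.0907 when day 36 or day 42 of KO was.

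**Figure D2:**
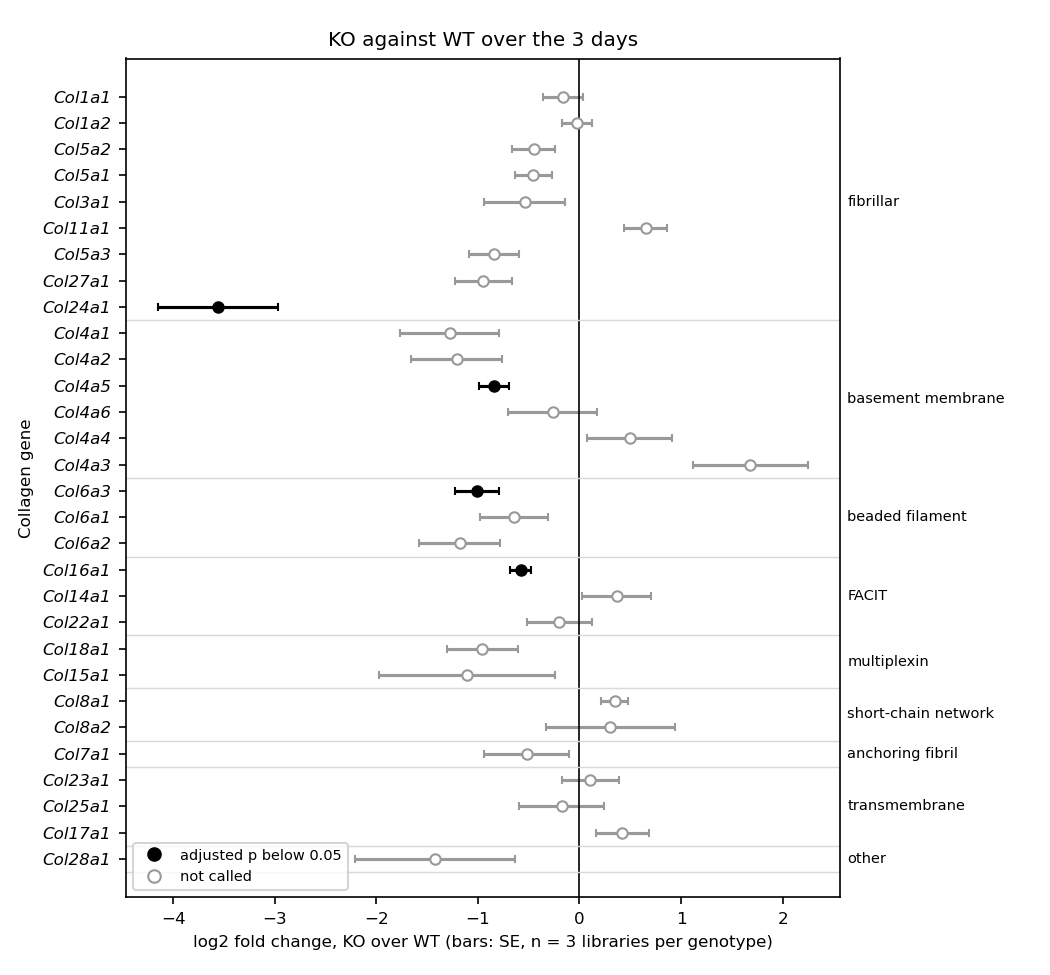
Log2 fold change of KO over WT for the 30 tested collagen genes, by class, with bars of 1 SE (n = 3 libraries per genotype). Filled points are the 4 genes called by edgeR, from -3.56 for Col24a1 to -0.58 for Col16a1.

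The sequence before the annotated start of each of the 4 called genes is given from RefSeq (GRCm38.p6), 5′ to 3′ on the gene's strand, since these are the stretches that a reader would search for control elements. For Col4a5 it ends where GENCODE M21 starts the transcript, 34 bases before the RefSeq start. Capitals mark CCAAT and the GC box GGGCGG, searched on both strands.
Col24a1, chr3:145292222-145292471, plus strand: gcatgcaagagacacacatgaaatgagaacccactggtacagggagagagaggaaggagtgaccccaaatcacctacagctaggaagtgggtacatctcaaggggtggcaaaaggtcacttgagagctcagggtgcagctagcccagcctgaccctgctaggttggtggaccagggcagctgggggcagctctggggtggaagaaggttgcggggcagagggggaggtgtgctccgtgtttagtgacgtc
Col6a3, chr1:90843972-90844221, minus strand: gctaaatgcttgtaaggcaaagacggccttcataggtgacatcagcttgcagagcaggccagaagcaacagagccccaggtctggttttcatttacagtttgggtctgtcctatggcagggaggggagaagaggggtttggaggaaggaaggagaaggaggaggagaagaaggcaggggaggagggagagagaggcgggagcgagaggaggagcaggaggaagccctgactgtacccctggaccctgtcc
Col4a5, chrX:141475169-141475384, plus strand: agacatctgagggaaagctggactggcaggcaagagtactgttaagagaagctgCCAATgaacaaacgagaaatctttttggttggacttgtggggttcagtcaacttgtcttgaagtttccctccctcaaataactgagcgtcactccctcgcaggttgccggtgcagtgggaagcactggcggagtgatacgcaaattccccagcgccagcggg
Col16a1, chr4:130047590-130047839, plus strand: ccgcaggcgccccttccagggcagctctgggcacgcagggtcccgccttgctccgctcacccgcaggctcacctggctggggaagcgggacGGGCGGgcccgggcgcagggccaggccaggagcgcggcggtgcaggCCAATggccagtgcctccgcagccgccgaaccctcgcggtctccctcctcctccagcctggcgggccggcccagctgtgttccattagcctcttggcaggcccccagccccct
Col16a1 held 1 match to each motif, Col4a5 held 1 to CCAAT, and the stretches of Col24a1 and Col6a3 held none, also none to TATAAA. The 300-base window of Col4a5 held 1 GGGCGG as well, between the end of the stretch shown and the RefSeq start. In the full 300-base windows around the start, which 26 of the 32 genes have in the table (28 windows), CCAAT was found in 39.3%, GGGCGG in 64.3% and TATAAA in 10.7%. Of all 32851 windows 37.4%, 35.7% and 13.6% held them. A match is a description of the letters and not a binding site.

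The chains of collagen I, the main fibril of skin, tendon and bone, had similar levels in both genotypes. Col1a1 was at 9107, 9744 and 8626 CPM in WT, against 10290, 6971 and 7290 CPM in KO, with a log2 fold change of -0.16 ± 0.20 (adjusted p = 0.644 by edgeR). Col1a2 was at 8196, 7782 and 9401 CPM in WT, against 8887, 7768 and 8331 CPM in KO, with a log2 fold change of -0.02 ± 0.15 (adjusted p = 0.944). The genotypes overlapped for both chains, and KO day 33 held the highest value of Col1a1.

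Col3a1, which forms thin fibrils with collagen I, was at 2115, 1363 and 3549 CPM in WT, against 1972, 1043 and 1812 CPM in KO (log2 fold change -0.54 ± 0.40, adjusted p = 0.433 by edgeR). In both genotypes day 36 was the lowest. The collagen V chains, which start fibrils and limit their width, had negative fold changes that were not called. Col5a1 was at 3968, 4352 and 3471 CPM in WT, against 3398, 2347 and 2863 CPM in KO, without overlap (-0.45 ± 0.18, adjusted p = 0.165). Col5a2 was at 4251, 5301 and 5358 CPM in WT, against 4643, 3200 and 3063 CPM in KO, where day 33 lay among the WT values (-0.45 ± 0.21, adjusted p = 0.222). Col5a3, the scarcest chain of collagen V here, was at 99.4, 84.6 and 89.2 CPM in WT, against 56.9, 32.2 and 63.4 CPM in KO, again without overlap (-0.84 ± 0.25, adjusted p = 0.0861). Col27a1, a chain related to Col24a1, was at 21.5, 15.99 and 23.2 CPM in WT, against 13.3, 6.49 and 11.6 CPM in KO. Its KO values lay below its WT values (-0.95 ± 0.28, adjusted p = 0.0893).

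Col11a1, best known from cartilage but also able to join collagen V in fibroblasts, was the only fibrillar chain with a positive fold change. It was at 311, 367 and 536 CPM in WT, against 708, 615 and 586 CPM in KO (0.65 ± 0.21, adjusted p = 0.109 by edgeR). All KO values lay above all WT values, but the gap narrowed from day 33 to day 42, with log2 CPM differences of 1.19, 0.74 and 0.13. The adjusted p was 0.0202 without WT day 42. Col11a1 was called in only 1 of the 6 edgeR fits with 1 library left out, and the adjusted p reached 0.258. The 6 chondrocyte markers summed to 82.6, 82 and 90.5 CPM in WT, against 1160, 182 and 132 CPM in KO. Most of the value in KO day 33 came from Col2a1 at 1092 CPM, while Matn1 stayed below 1 CPM in every library. Of the 6 markers Comp and Sox9 were called higher, where 4.07% of all genes were. The part of the 6 markers in the level of Col11a1 was not tested.

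Collagen IV is built from 6 chains whose genes lie in 3 head-to-head pairs. In KO the chains of the main network, Col4a1 and Col4a2, were at most of their WT level on day 33 and further below it on days 36 and 42. Col4a1 (chromosome 8, 11198423 to 11312826, minus strand) was at 2899, 3180 and 2394 CPM in WT, against 2103, 849 and 543 CPM in KO. Col4a2 (chromosome 8, 11312805 to 11449287, plus strand) was at 2042, 2106 and 2064 CPM in WT, against 1590, 645 and 457 CPM in KO. On the log2 CPM scale KO differed from WT by -0.46, -1.91 and -2.14 for Col4a1 and by -0.36, -1.71 and -2.18 for Col4a2 on the 3 days. Every KO value was below every WT value for both genes.

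With the days taken as replicates, the difference between KO day 33 and the later days entered the spread, and neither gene was called. The log2 fold changes were -1.28 ± 0.49 for Col4a1 (adjusted p = 0.152 by edgeR) and -1.21 ± 0.45 for Col4a2 (adjusted p = 0.145). Without KO day 33 both were called, at -2.02 (adjusted p = 0.0154) and -1.91 (adjusted p = 0.0113). Each was called in only 1 of the 6 edgeR fits with 1 library left out. In those fits the adjusted p reached 0.378 for Col4a1 and 0.367 for Col4a2. DESeq2 called both on all 6 libraries. Their 5′ ends lie 21 bases apart on opposite strands (GRCm38), the 2 transcripts overlapping there by 22 bases, and the counting's use of strand is not given in the sources used here. The main coding transcripts are 6615 and 6450 bases long, and the part of the overlap in the 2 levels was not tested.

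Col4a3 and Col4a4, the chains of the mature kidney and lung basement membrane, were low in all libraries and had positive fold changes that were not called on all 6 libraries. Col4a3 was at 2.69, 3.21 and 4.93 CPM in WT, against 3.53, 15.2 and 15.8 CPM in KO (1.68 ± 0.57, adjusted p = 0.119 by edgeR). Col4a4 was at 5.93, 7.22 and 5.10 CPM in WT, against 3.65, 11.4 and 10.7 CPM in KO (0.49 ± 0.42, adjusted p = 0.496). Without KO day 33 both were called higher, at 2.11 (adjusted p = 0.0149) and 0.86 (adjusted p = 0.0438). Each was called in only 1 of the 6 edgeR fits with 1 library left out. In those fits the adjusted p reached 0.312 for Col4a3 and 0.829 for Col4a4. DESeq2 called Col4a3 but not Col4a4 on all 6 libraries. In both genes KO was within or below the WT range on day 33 and above it on days 36 and 42. The pair's 5′ ends are 72 bases apart on chromosome 1. Col4a6, whose 5′ end lies 1309 bases from that of Col4a5, was at 14.9, 10.6 and 9.997 CPM in WT, against 4.04, 11.3 and 14.2 CPM in KO (-0.26 ± 0.44, adjusted p = 0.746). Its KO value was the lowest of the 6 on day 33 and within the WT range on day 42, whereas Col4a5 was below WT on each day.

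**Figure D3:**
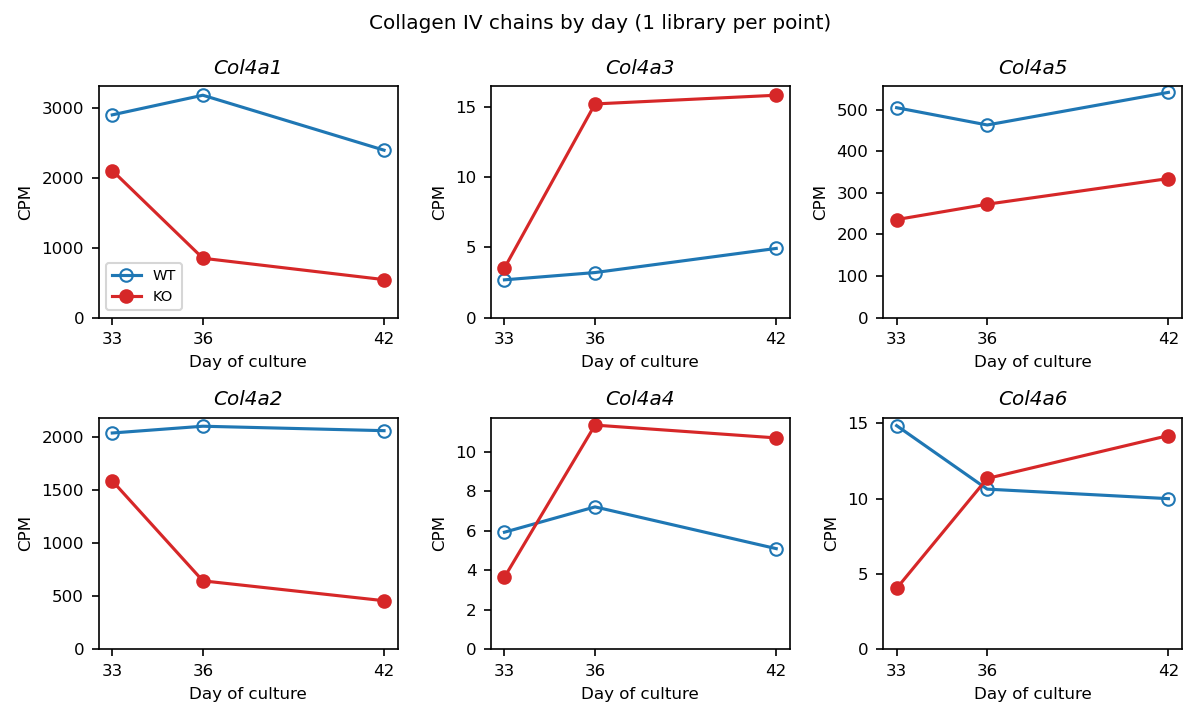
Level of the 6 collagen IV chains in CPM against day of culture, with 1 library per point (WT open blue, KO filled red). In KO Col4a1 is at 2103 CPM on day 33 and 543 CPM on day 42, while Col4a3 is at 3.53 and 15.8 CPM.

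The other chains of collagen VI were lower in KO on most days without being called. Col6a1 was at 965, 560 and 1396 CPM in WT, against 514, 601 and 759 CPM in KO (-0.64 ± 0.33, adjusted p = 0.273 by edgeR). Col6a2 was at 568, 268 and 848 CPM in WT, against 261, 199 and 283 CPM in KO (-1.18 ± 0.40, adjusted p = 0.12). WT day 36 was low for both and overlapped with KO. Without WT day 36 Col6a2 was called, at -1.51 (adjusted p = 0.0347). It was called in only 1 of the 6 edgeR fits with 1 library left out, and the adjusted p reached 0.325.

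Among the chains that decorate fibrils or end in free fragments, none besides Col16a1 was called. Col14a1, a FACIT chain that regulates fibril growth, was at 30.2, 29.3 and 34.6 CPM in WT, against 64.6, 31.4 and 25.4 CPM in KO. Only KO day 33 stood above WT (0.37 ± 0.34, adjusted p = 0.542 by edgeR), and without it the log2 fold change was -0.14. Col8a2, described below, was at 26.1 CPM in KO day 33, the library with the chondrocyte markers at 1160 CPM. It was also at 26.1 CPM in WT day 42, where these markers summed to 90.5 CPM. Their part in Col14a1 and Col8a2 was not tested. The multiplexin Col18a1, the precursor of endostatin, was at 165, 78.7 and 148 CPM in WT, against 95.9, 49.7 and 56.1 CPM in KO (-0.96 ± 0.35, adjusted p = 0.142). Col15a1, the other multiplexin, was at 2.86, 1.28 and 11.7 CPM in WT, against 4.31, 1.16 and 1.82 CPM in KO (-1.10 ± 0.87, adjusted p = 0.467). WT day 42 set the sign for Col15a1, since the log2 fold change was 0.24 without that library.

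None of the short-chain network and anchoring fibril chains was called. Col8a1, a chain of vessel walls and Descemet's membrane, was at 749, 723 and 671 CPM in WT, against 1007, 952 and 764 CPM in KO. The KO values lay above the WT values (0.35 ± 0.14, adjusted p = 0.159 by edgeR). Col8a2, its partner, was at 6.77, 8.91 and 26.1 CPM in WT, against 26.1, 7.31 and 18.0 CPM in KO, and the genotypes overlapped (0.31 ± 0.63, adjusted p = 0.80). Col7a1, the anchoring fibril of the skin, was at 269, 328 and 130 CPM in WT, against 96.3, 191 and 220 CPM in KO (-0.52 ± 0.42, adjusted p = 0.474). KO was below WT on days 33 and 36 and above it on day 42.

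Of the remaining chains, Col23a1, a transmembrane collagen, was at 14.6, 16.8 and 16.1 CPM in WT, against 25.4, 13.4 and 12.4 CPM in KO (0.11 ± 0.28, adjusted p = 0.843 by edgeR). Col28a1 was at 7.24, 3.21 and 13.1 CPM in WT, against 6.25, 1.23 and 1.24 CPM in KO (-1.42 ± 0.79, adjusted p = 0.298). The FACIT chain Col22a1 and the transmembrane chains Col17a1 and Col25a1 stayed below 5 CPM in every library and were not called. Their log2 fold changes were -0.20, 0.42 and -0.18.

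Single days were compared without a test, by counting genes at least 2-fold apart on the log2 CPM scale and at 5 CPM or more in the higher library. Here and in the next paragraph the percentages are of all 17233 genes tested, also those below 5 CPM. Of the 30 collagen genes tested 26 reached 5 CPM in a library. The share of all genes that did so was not counted, so the 2 sides are not matched for level. On day 33, 5 of the 30 collagen genes were lower in KO and 3 higher, where 2.82% and 1.7% of all genes were. Col4a5, Col4a6, Col6a2, Col6a3 and Col7a1 were the lower ones, and Col11a1, Col14a1 and Col8a2 the higher ones. On day 36, 5 were lower (Col27a1, Col4a1, Col4a2, Col5a3 and Col6a3; 3.2% of all genes) and 1, Col4a3, was higher (2.03%). On day 42, 7 were lower (Col15a1, Col18a1, Col27a1, Col28a1, Col4a1, Col4a2 and Col6a2; 4.53%) and 2, Col4a3 and Col4a4, higher (2.11%). The median log2 difference of the 30 genes was -0.22, -0.46 and -0.52 on the 3 days, against -0.01, -0.01 and 0 over all genes.

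Within KO more chains differed between days 33 and 36 than between days 36 and 42. At least 2-fold lower on day 36 than on day 33 were 6 chains (Col14a1, Col27a1, Col28a1, Col4a1, Col4a2 and Col8a2; 1.58% of all genes), and 3 were higher (Col4a3, Col4a4 and Col4a6; 0.731%). From day 36 to day 42, 0 were lower (0.325%) and 1, Col8a2, was higher (0.279%). Within WT 3 were lower on day 36 than on day 33 (Col18a1, Col28a1 and Col6a2; 0.673%) and 0 higher (0.221%). From day 36 to day 42 in WT, 1, Col7a1, was lower (1.72%) and 6 were higher (Col15a1, Col28a1, Col3a1, Col6a1, Col6a2 and Col8a2; 3.03%). Between day 33 and day 42, 1 chain, Col7a1, was lower (1.44%) and 2, Col15a1 and Col8a2, higher (2.08%) in WT, and in KO 5 were lower (Col14a1, Col23a1, Col28a1, Col4a1 and Col4a2; 1.78%) and 4 higher (Col4a3, Col4a4, Col4a6 and Col7a1; 0.986%).

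Over both genotypes no gene was called between day 42 and day 33 by edgeR (0% of all genes in either direction). Without adjustment 2018 genes had a p below 0.05, among them 1 of the 30 collagen genes, Col4a3 (1.45 ± 0.49), and DESeq2 called 0 collagen genes. The term that asks whether the trend with day differed between genotypes was also called for no gene by edgeR (0%), with an unadjusted p below 0.05 for 1334 genes and 7 collagen genes. Each of these 2 fits leaves 2 residual degrees of freedom, so the lack of calls does not show that levels or trends were equal. For Col11a1 the slope of KO less that of WT was -0.12 ± 0.03 log2 units per day (adjusted p = 0.586 by edgeR), and for Col7a1 it was 0.25 ± 0.08 (adjusted p = 0.626). DESeq2 called these 2 genes, with adjusted p of 0.0061 and 0.0319. For Col4a1 and Col4a2 the slopes were -0.17 ± 0.06 and -0.19 ± 0.06 (adjusted p = 0.63 and 0.626 by edgeR).

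Levels of different chains were compared per kilobase of the main coding transcript. In WT the highest were Col1a2 at 1582 ± 157 (SD, n = 3) and Col1a1 at 1545 ± 94.6 CPM per kilobase, which did not differ beyond their spread. Col5a2 followed at 750 ± 94.1, then Col5a1 at 468 ± 52.6, Col4a1 at 427 ± 60.2, Col3a1 at 421 ± 200 and Col4a2 at 321 ± 5.04 CPM per kilobase. Of these, Col5a1, Col4a1 and Col3a1 lay within each other's spread. In KO the order of the 4 highest was the same, and Col4a1 and Col4a2 stood at 176 ± 125 and 139 ± 94.1, seventh and ninth. Col8a1 stood sixth in KO at 178 ± 25 and eleventh in WT at 140 ± 7.76 CPM per kilobase. The lengths used for Col14a1, Col22a1 and Col13a1 are those of short models, so their per-length levels were not compared.

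Ratios of chains that share a trimer or a gene pair were compared per length within each library, where the scaling cancels. Col1a1 to Col1a2 was 1.0, 1.13 and 0.828 in WT and 1.04, 0.809 and 0.789 in KO, although the collagen I trimer holds more of the former chain. Col4a1 to Col4a2 was 1.38, 1.47 and 1.13 in WT and 1.29, 1.28 and 1.16 in KO. The ratio of these chains thus stayed within a narrow range while their levels in KO spanned 543 to 2103 and 457 to 1590 CPM. Col6a1 to Col6a2 was 1.64, 2.01 and 1.59 in WT and 1.89, 2.9 and 2.58 in KO. Of the 7 ratios compared this one had the smallest p, 0.2 by an exact two-sided permutation test (0.7 after Benjamini-Hochberg adjustment, log2 difference 0.48). With 3 libraries against 3 such a test cannot go below 0.1, so it cannot pass a threshold of 0.05.

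**Figure D4:**
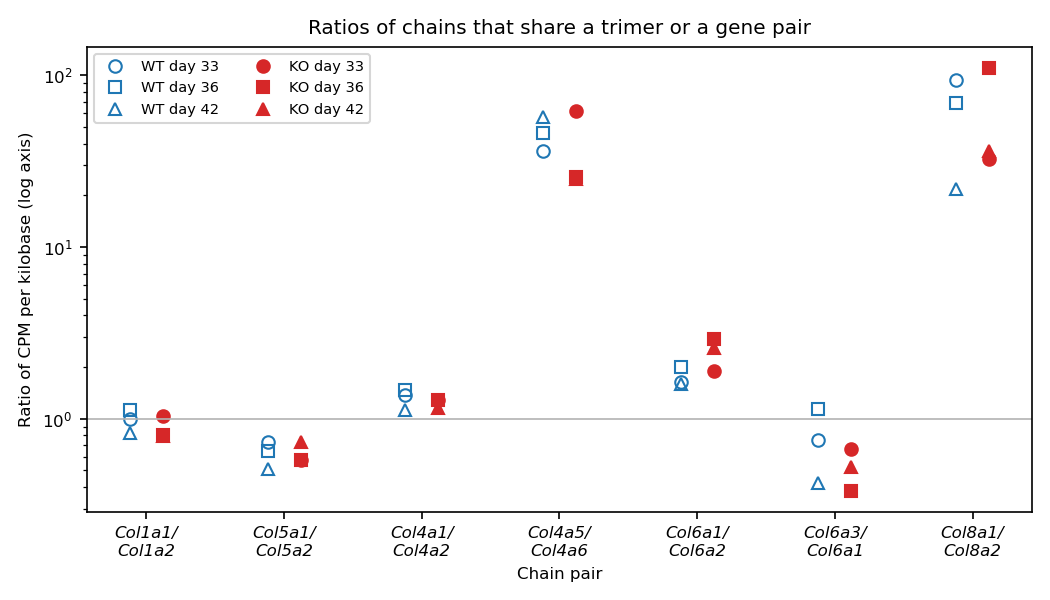
Ratios of CPM per kilobase for 7 chain pairs (log axis), with 1 point per library, WT open blue and KO filled red. The Col4a1 to Col4a2 ratio lies between 1.13 and 1.47 in all 6 libraries, while Col8a1 to Col8a2 spans 21.8 to 110.

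Transcript forms were compared in 11 collagen genes with at least 100 transcript counts in every library and at least 2 forms reaching 10% in a library, 24 transcripts in all. The share of a gene's transcript counts separated the genotypes for 4 transcripts of 3 genes, each at p = 0.1 by an exact permutation test, two-sided (0.6 after adjustment), the smallest that 3 against 3 allows. Of 16853 transcripts of all genes under the same limits 11.1% did so, and the 2 forms of Col4a4 counted here are complements of each other. In Col4a4 a retained-intron form held 15.3, 11.5 and 17.3% in WT and 7.8, 6.55 and 7.71% in KO, and the full coding form the rest. In Col27a1 the main coding form held 74.67, 70.59 and 81.66% in WT and 68.57, 67.28 and 70.55% in KO, so that the nearest values all but met. In Col11a1 a form annotated as a target of nonsense-mediated decay held 18.5, 19.6 and 22.3% in WT and 16.5, 17.1 and 17.7% in KO. The forms of the called genes Col4a5, Col6a3 and Col16a1 overlapped between genotypes. Col6a3 was mainly the form of 9001 bases, at 70.9, 77.8 and 76.6% in WT and 70.9, 79.2 and 75.8% in KO, so that its lower level came with nearly equal shares of its forms. Reads in sequence that forms share were divided by the authors' estimate, and the deposited shares carry that uncertainty.

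Collagen transcripts are known targets of the miR-29 family, microRNAs that share a seed and pair with sites in the 3′ untranslated region (3′ UTR). The mature sequences are given from RefSeq with the seed, bases 2 to 8, in capitals, because all 3 share it and the sites below are its complement.
mmu-miR-29a-3p: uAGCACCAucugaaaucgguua
mmu-miR-29b-3p: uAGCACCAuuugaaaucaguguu
mmu-miR-29c-3p: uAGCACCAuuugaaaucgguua
A match to the whole seed, TGGTGCT on the transcript's strand, was searched in the 3′ UTR of each gene's main coding transcript (GENCODE M21). Of the 32 collagen genes 22 (68.8%) held at least 1 match and 39 matches in all, or 0.834 per kilobase of 3′ UTR. Of the 30 tested, 21 (70%) held a match and 35 matches in all, or 0.777 per kilobase. Of the 13046 genes tested that have such a transcript 14.1% held a match, at 0.115 per kilobase. The 3′ UTRs had a median length of 1036 bases in the collagen genes and 993 bases in all, so that length differed little. MicroRNAs were not analysed here.

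All 6 collagen IV chains held a match, from 1 in Col4a1 and Col4a6 to 4 in Col4a3. Among the fibrillar chains Col1a2 held none and the other 8 held 1 to 4, with 4 in Col5a1 and 3 in Col5a3. Col6a1, Col8a2, Col13a1, Col14a1, Col17a1, Col18a1, Col22a1, Col23a1 and Col28a1 held none, of which Col13a1, Col14a1 and Col22a1 were searched in short gene models. All 4 called genes held a match, and so did the not called Col4a3, which stood higher in KO. The first match of each called gene and of 6 abundant chains is shown with its surroundings, the match in capitals and the mm10 coordinates of the match alone.
Col24a1, chr3:145551210-145551216, plus strand: tccttttggtgttgctTGGTGCTgtctccc
Col6a3, chr1:90767412-90767418, minus strand: acgtgacctgtcaataTGGTGCTaaatgtg
Col4a5, chrX:141688253-141688259, plus strand: ccactgctcccaccaaTGGTGCTaatatcc
Col16a1, chr4:130099268-130099274, plus strand: ttccatggggttccccTGGTGCTgca
Col4a1, chr8:11199762-11199768, minus strand: tgccaccgtcacaacaTGGTGCTactcccc
Col4a2, chr8:11448359-11448365, plus strand: tgtgggaaggccacgtTGGTGCTtatcctt
Col1a1, chr11:94952538-94952544, plus strand: ggtgggaaggaatttcTGGTGCTatagaag
Col3a1, chr1:45348982-45348988, plus strand: cttcaaaatgtctcaaTGGTGCTataataa
Col5a1, chr2:28038004-28038010, plus strand: aataactatgaacattTGGTGCTgaatttt
Col11a1, chr3:114219083-114219089, plus strand: cctatttggatttcgtTGGTGCTgtagaaa
The median log2 fold change was -0.54 over the 21 tested collagen genes with a match and -0.02 over the 9 without. Over all genes tested it was -0.01 with and -0.02 without a match. These values are descriptions, and no test was made over the list.

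Proteins that handle collagen chains were mostly not called. The counts in this and the next paragraph stand beside 4.65% of all genes called lower and 4.07% called higher. Of 20 tested genes for chain processing in the endoplasmic reticulum 1 fell and 0 rose. This was P3h2, a prolyl 3-hydroxylase of collagen IV, at 15.1, 14.4 and 14.0 CPM in WT, against 3.32, 4.51 and 4.61 CPM in KO (-1.81 ± 0.16, adjusted p = 0.00652 by edgeR). Serpinh1, the collagen chaperone HSP47, had a log2 fold change of 0 ± 0.16, and P4hb, the beta subunit of prolyl 4-hydroxylase, one of -0.04 ± 0.11. Of 14 genes for propeptide cleavage and crosslinking 1 fell and 1 rose. Bmp1, which cleaves the C-propeptide, was at 442, 528 and 405 CPM in WT, against 266, 260 and 260 CPM in KO (-0.81 ± 0.12, adjusted p = 0.0152). The lysyl oxidase Loxl4 was at 85.4, 95.1 and 69.9 CPM in WT, against 160, 155 and 120 CPM in KO (0.79 ± 0.16, adjusted p = 0.0337). Lox (log2 fold change 0.40 ± 0.16, adjusted p = 0.159) and Loxl2 (-1.06 ± 0.30, adjusted p = 0.08) were not called.

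Of 12 tested proteins that bind fibrils 1 fell, Tnxb, the tenascin lost in a form of Ehlers-Danlos syndrome. It was at 17.0, 8.82 and 10.7 CPM in WT, against 2.45, 1.27 and 0.988 CPM in KO (-2.95 ± 0.42, adjusted p = 0.0141 by edgeR). The median of this list was -1.46, against -0.01 over all genes. A negative value was found in 11 of the 12, and in 8766 of all 17233 genes. Fn1, fibronectin, had a log2 fold change of 0 ± 0.17, and Bgn, the small proteoglycan biglycan, was at -0.43 ± 0.16 (adjusted p = 0.147). Of 8 collagen receptors 1 fell, Ddr2, a receptor tyrosine kinase for fibrillar collagen, at 675, 578 and 685 CPM in WT, against 423, 370 and 381 CPM in KO (-0.72 ± 0.11, adjusted p = 0.0178). The integrin chains Itgb1 and Itga11 had log2 fold changes of -0.11 ± 0.19 and -0.30 ± 0.54 (adjusted p = 0.749 and 0.771). Of 15 partners of collagen IV in the basement membrane 1 fell and 1 rose. Nid1, which joins laminin to collagen IV, was at 2268, 2206 and 1684 CPM in WT, against 1304, 1158 and 1137 CPM in KO (-0.78 ± 0.15, adjusted p = 0.0335). The laminin chain Lama2 was at 77.1, 71.2 and 49.0 CPM in WT, against 147, 154 and 142 CPM in KO (1.17 ± 0.17, adjusted p = 0.0151). Hspg2 and Lamb1 were not called, at -0.12 ± 0.19 and -0.33 ± 0.19.

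Of the 8 fibroblast markers 2 fell and 0 rose, where 4.65% and 4.07% of all genes did. The 2 were S100a4 (-0.92 ± 0.13, adjusted p = 0.0133 by edgeR) and the mesenchymal transcription factor Prrx1 (-1.0 ± 0.19, adjusted p = 0.0292). All 3 summed KO values of the 8 markers lay below the 3 WT values. The 8 macrophage markers summed to 46.5, 15.9 and 8.65 CPM in WT, against 26.4, 8.43 and 6.89 CPM in KO, with 0 of 7 tested called, and Fcgr1 was below 1 CPM throughout. The part of these markers, and of the share of mitochondrial transcripts, in the collagen levels was not tested.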

How the data were processed

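Libraries were stranded and poly(A)-selected, per the labels. Estimated counts per gene and per transcript, fractional and not normalized, were deposited by the authors, per the file headers. Bowtie2 2.2.1, limma 3.18.13 and the build mm10 appear in the submitters' processing notes with no role stated. How reads were counted, with which annotation and strand rule, is not given in the sources used here, and 48 columns of other per-sample values were not used. The 4 columns of a group differed by less than sampling noise (mean chi-square per degree of freedom 0.832 to 0.843, against 9.36 to 73.5 between groups), and were summed to 1 library and rounded.

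All 17233 genes passing edgeR's filterByExpr were fitted with edgeR 4.0.16 (TMM, robust quasi-likelihood, R 4.3.3), adjusted by Benjamini-Hochberg at 0.05, with the days as replicates. Deviations of same-numbered columns correlated at a median of 0.003 over 60 pairs. Since columns of a group differ by less than sampling noise, this cannot show whether the numbers pair samples. The SE was taken as |log2 fold change| over the root of the F statistic. CPM use TMM-scaled library totals, and log2 CPM a prior count of 2. The code was tested on simulated data. Alternatives were DESeq2 1.42.0, RLE factors, no filter, left-out libraries, days and columns, day as a factor, and 24 columns with and without a replicate block.

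Coordinates are from GENCODE M21 (mm10). Named genes are every called collagen gene, every other reaching 5 CPM in a library, and, of the other lists, the called genes and the 2 highest not called. Col22a1, Col17a1, Col25a1, Col13a1, Col26a1, Xist and the markers are named beyond that rule. Members and lists were chosen with earlier results of these data known.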

Additional observations from a re-analysis of the deposited data

Results flagged for a closer look

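Between day 33 and day 42, 2 collagen genes differed at least 2-fold in opposite directions in the 2 genotypes, here with no minimum level. The same was not counted over all genes, so it is not known whether 2 is more than usual. Col7a1 differed by -1.05 on the log2 CPM scale in WT and by 1.19 in KO, and Col15a1 by 2.01 in WT and -1.22 in KO. Col15a1 was below 5 CPM in KO on both days (4.31 and 1.82 CPM), so that this difference is not among those counted with that minimum. Each value compares 1 library with 1 other, so that it has no replicate check. The difference between genotypes had an adjusted p of 0.626 for Col7a1 and 0.65 for Col15a1 by edgeR's test of the trend with day. DESeq2 called it for Col7a1 (adjusted p = 0.0319).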

How the results depend on the processing

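The number of collagen genes called between genotypes was 4 with RLE factors, without a filter and without any 1 of the numbered columns (the same 4 genes each time), and 6 with day as a factor. It was 12 by DESeq2, 0 to 7 when 1 library was left out, 3 without day 33, 0 without day 36 and 2 without day 42. Over all genes, against 1503, it was 2855 by DESeq2, 24 to 1811 when 1 library was left out, and 429, 3 and 539 without days 33, 36 and 42. The median log2 fold change of the tested collagen genes was -0.62 to -0.33 when 1 library was left out. The 24 columns taken as separate samples gave 27 collagen genes and 11107 genes in all, and with a replicate block 27 and 11103. These 2 fits take their spread from columns of 1 library. Deviations of same-numbered columns correlated at -0.031 to 0.033. This cannot show whether the numbers pair the columns, which differ within a group by less than sampling noise. DESeq2 called 2 collagen genes for the difference in trend, against 0 by edgeR. From day 36 to day 42 in KO, 2 collagen genes differed at least 2-fold without TMM factors, against 1.

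The sign changed under some alternatives for 8 genes, none of them called. When 1 library was left out, the log2 fold changes were -0.14 to 0.62 for Col14a1, -1.80 to 0.24 for Col15a1, -0.077 to 0.063 for Col1a2, -0.29 to 0.30 for Col23a1, -0.47 to 0.23 for Col25a1, -0.63 to 0.11 for Col4a6 and -0.13 to 1.14 for Col8a2. Without day 33 they were -0.17 for Col14a1, -0.35 for Col23a1, 0.31 for Col4a6 and -0.46 for Col8a2. Without day 36 it was 0.034 for Col22a1, and without day 42 it was 0.42 for Col15a1, 0.065 for Col1a2 and 0.27 for Col25a1. The cause was not tested. All 124 chain ratios and transcript shares recomputed without 1 of the numbered columns moved by less than the spread between libraries. The precision is limited by 3 libraries per genotype with no stated separate cultures and, for scarce chains such as Col24a1 with 5 counts in each of 2 KO libraries, by depth. In every comparison of KO with WT, genotype cannot be told apart from the difference in Xist given above.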
